A study of Homo sapiens with 46 samples.

Results

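CD63 and OCIAD2 are a pair of nuclear genes whose transcripts stood above the control after most of 11 treatments that silence mtDNA-encoded mRNAs. They are 2 of the 58735 genes counted, and of the 20272 genes with enough reads to be tested. Both were selected on measured values of these same libraries: CD63 was called higher than control after 8 of 11 treatments and OCIAD2 after 5, the most of all tested genes, while the next genes, EML2, LINC02001, MT-RNR1 and MT-RNR2, were called after 4. The values against control are therefore given as a description, without a test. OCIAD2 stood above control in the fit of all 11 treatments but was called in fewer than 6 of them.

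The libraries came from HEK293T cells, a human embryonic kidney line (HEK293-Flp-In T-Rex cells in the study's methods), 48 hours after treatment. Each of 11 treatments delivered a chimera, a synthetic antisense strand of uncharged backbone (morpholino) clicked to pCox4, a yeast presequence that enters mitochondria. It was given at 2 µM with the delivery agent Endo-Porter and was complementary to the mRNA of ATP6, ATP8, COX1, COX2, COX3, CYTB, ND1, ND2, ND3, ND4L or ND5. ATP6 and ATP8 are encoded on the same bicistronic mRNA, and the study reports that the ATP8 chimera also lowered ATP6 synthesis. Control cells were given pCox4 in click reaction buffer and no morpholino. Silencing of a transcript and uptake of any morpholino, which also carried the dye FITC, therefore cannot be told apart in a comparison with control. The doses of pCox4 and Endo-Porter for control cells are not stated in the sources used here. No other difference in culture between the groups was described. There were 4 libraries for the control and for each treatment, except 3 for COX2 (replicates 2, 3 and 4) and 3 for ND2 (replicates 1, 3 and 4), 46 in all. Replicates 1 and 2 formed batch 1 and replicates 3 and 4 formed batch 2, handled on different days with other reagents, and the study calls them biological replicates. All values come from poly(A)-enriched bulk RNA, in which fewer cells with a transcript and less of it per cell cannot be told apart.

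CD63 is a tetraspanin, a protein that spans the membrane several times and resides in late endosomes, multivesicular bodies and lysosomes, and it is widely used as a marker of exosomes, the vesicles that cells release when multivesicular bodies meet the plasma membrane. It also binds TIMP1 and takes part in the sorting of cargo such as the melanosome protein PMEL. OCIAD2 carries an OCIA domain (named for ovarian carcinoma immunoreactive antigen) and is found in mitochondria and endosomes; its paralogue OCIAD1 acts with prohibitins in the assembly of respiratory complex III, and OCIAD2 has been linked to γ-secretase, the protease that cleaves APP and Notch. Silencing of an mtDNA-encoded mRNA is meant to stop the synthesis of a subunit of complex I (ND1 to ND5), complex III (CYTB), complex IV (COX1 to COX3) or the ATP synthase (ATP6 and ATP8), all of which are translated inside mitochondria, whereas CD63 and OCIAD2 are transcribed in the nucleus.

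CD63 (ENSG00000135404) spans chr12:55725323-55729707 and OCIAD2 (ENSG00000145247) spans chr4:48885019-48906937, both on the minus strand of GRCh38 and both protein-coding. The sequence directly upstream of each annotated gene is shown, read 5′ to 3′ on the minus strand from the RefSeq promoter windows of GRCh38.p14. Whether the pair shares a regulator was not tested. The CD63 stretch is chr12:55729708-55729923 and lies inside the antisense gene AC009779.2, and the OCIAD2 stretch is chr4:48906938-48907078. Capitals mark the letters GGGCGG, the GC box that SP1 recognizes, on either strand.
CD63: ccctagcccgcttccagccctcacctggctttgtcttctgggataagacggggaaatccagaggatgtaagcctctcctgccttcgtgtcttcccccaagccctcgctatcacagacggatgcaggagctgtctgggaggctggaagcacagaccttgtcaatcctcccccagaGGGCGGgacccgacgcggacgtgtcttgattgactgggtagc
OCIAD2: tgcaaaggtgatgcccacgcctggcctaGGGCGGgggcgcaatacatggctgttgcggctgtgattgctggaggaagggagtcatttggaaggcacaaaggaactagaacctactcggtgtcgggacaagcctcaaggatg
RefSeq lists 8 start sites for CD63 and 2 for OCIAD2, and which of them these cells used was not measured. Each printed stretch holds 1 match to GGGCGG, a motif that 44.9% of the 34943 promoter windows of 300 bases contain on either strand. Over whole windows, GGGCGG was found in 5 of 8 windows of CD63 and in 2 of 2 of OCIAD2. The E-box CACGTG was found in 1 of 8 CD63 windows and 0 of 2 OCIAD2 windows (7.23% of all windows). Its extended form TCACGTGA, the core of the element bound by the lysosomal regulator TFEB, was in none of the 10 windows (0.979% of all). The AP-1 motif TGANTCA and the NRF2 core TGANNNNGC each occurred in 1 CD63 window and no OCIAD2 window (7.72% and 41.8% of all). TGACGTCA (CRE), TGATGNAA (ATF4), CGCATGCG (NRF1), CCGGAAGT (ETS) and CCAAT were found in no window of either gene, and such a lack refers to these letters in these windows only.

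Each library held 18876395 to 100698084 counts (median 23413171), and COX3 replicate 4 alone exceeded 28121898. CD63 was covered by 3511 to 24766 reads per library and OCIAD2 by 869 to 6047, so that neither was close to the detection limit. Of the transcripts of the 11 targeted genes, 3 were called lower in the libraries of their own treatment, 3 were called higher and 5 were not called. Lower were MT-CO1 (log2 fold change -1.33), MT-CO3 (-0.49) and MT-CYB (-0.33), and higher were MT-ND1 (0.79), MT-ND2 (1.02) and MT-ND3 (0.80). The chimeras are meant to block translation, which the study followed by labelling newly made mitochondrial proteins. The mRNA level alone is therefore no measure of silencing. The cytoskeletal and adhesion genes KRT8, KRT18, VIM and CDH2 that mark this line were abundant, at 86.4 CPM or more in each library (CPM being the read count scaled to a common library size after TMM normalization), whereas PAX2 and LHX1, kidney lineage markers listed for the line, were at 4.81 to 9.96 and 1.95 to 4.32 CPM. Among 8 markers of other cell types, CD3E, PTPRC, ALB and PECAM1 were at most at 0.713 CPM, MLANA was at 0.347 to 1.58 and PMEL at 1.32 to 3.22 CPM, while KIT was at 11.6 to 18.8 and COL1A1 at 20.1 to 31.6 CPM. The summed level of these 8 markers was 41.3 to 47.4 CPM in the control libraries and 38.3 to 50.5 CPM in the treated ones.

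CD63 was abundant in these cells. Per kilobase of gene length it stood at 86.8 CPM, above 97.6% of coding genes, and no other tested tetraspanin reached its level on this scale. In the control libraries CD63 was at 198.3 and 213.9 CPM in batch 1 and at 174.2 and 166.2 CPM in batch 2. The controls of batch 2 were thus the lowest of all 46 libraries for this transcript.
After silencing of ATP synthase subunits, CD63 was at 219.1, 273.5, 208.5 and 218.0 CPM for ATP6 (replicates 1 to 4). For ATP8, it was at 238.7, 243.0, 239.2 and 230.4 CPM. The 4 ATP8 libraries lay close together, whereas ATP6 replicate 2 gave the highest CD63 value of the series.
After silencing of complex IV subunits, CD63 was at 236.5, 266.2, 229.6 and 240.7 CPM for COX1. For COX2, it was at 258.8, 226.0 and 227.4 CPM (replicates 2, 3 and 4). For COX3, it was at 245.4, 224.9, 223.3 and 245.4 CPM. All 11 of these libraries were above the control libraries of either batch.
After silencing of CYTB, the complex III subunit, CD63 was at 270.2 and 264.7 CPM in batch 1 and at 206.0 and 206.6 CPM in batch 2. Both batches were above their own controls, but the batches of this treatment did not overlap.
After silencing of complex I subunits, CD63 was at 243.7, 221.0, 231.8 and 221.8 CPM for ND1. For ND2, it was at 217.1, 196.1 and 214.4 CPM (replicates 1, 3 and 4). For ND3, it was at 224.9, 215.8, 210.0 and 221.7 CPM. These include the lowest treated libraries of each batch, ND3 replicate 2 in batch 1 and ND2 replicate 3 in batch 2.
For ND4L, CD63 was at 239.9, 253.1, 244.8 and 243.6 CPM, and for ND5 at 217.2, 265.2, 223.4 and 216.9 CPM. ND4L gave the highest mean of all treatments, 245.4 ± 5.57 CPM (SD, n = 4), and the mean of the control was 188.2 ± 21.9 CPM (SD, n = 4).
All 42 treated libraries held more CD63 than both control libraries of their batch, from 215.8 CPM in batch 1 and from 196.1 CPM in batch 2. Of the 20272 genes tested, this held for 2, CD63 and PDHA1 (a subunit of pyruvate dehydrogenase), which is 0.00987% of them.

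**Figure D1:**
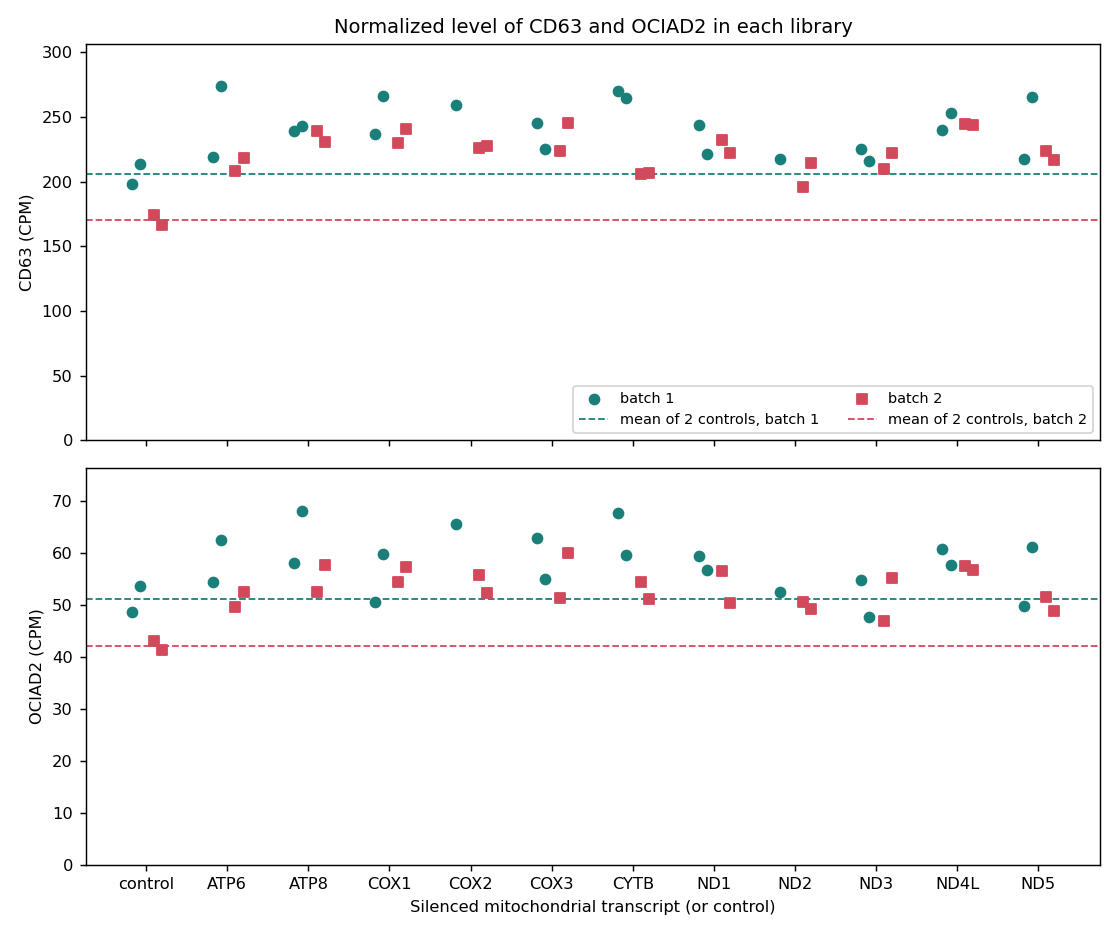
Levels of CD63 (top) and OCIAD2 (bottom) in CPM (TMM-normalized, linear axis from 0) in each of 46 libraries, by condition; circles are batch 1, squares batch 2, and dashed lines are the mean of the 2 control libraries of each batch. All 42 treated libraries are above both controls of their batch for CD63 (as for 0.00987% of tested genes) and 38 of 42 for OCIAD2 (share of genes not counted).

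OCIAD2 was less abundant, at 22.1 CPM per kilobase, above 86% of coding genes. In the control libraries it was at 48.62 and 53.64 CPM in batch 1 and at 43.01 and 41.29 CPM in batch 2. As for CD63, the controls of batch 2 were the lowest of all libraries.
For ATP6, OCIAD2 was at 54.48, 62.50, 49.51 and 52.51 CPM, and for ATP8 at 57.98, 68.11, 52.44 and 57.61 CPM. ATP8 replicate 2 was the highest library for this transcript.
For COX1, OCIAD2 was at 50.60, 59.86, 54.43 and 57.28 CPM. For COX2, it was at 65.52, 55.77 and 52.29 CPM (replicates 2, 3 and 4). For COX3, it was at 62.95, 55.00, 51.31 and 59.91 CPM. COX1 replicate 1 fell between the control libraries of its batch and the others exceeded both controls of theirs.
For CYTB, OCIAD2 was at 67.61, 59.53, 54.37 and 51.07 CPM, all above the controls of the batch.
For ND1, OCIAD2 was at 59.38, 56.75, 56.58 and 50.38 CPM. For ND2, it was at 52.41, 50.57 and 49.19 CPM (replicates 1, 3 and 4). For ND3, it was at 54.89, 47.61, 46.83 and 55.10 CPM. ND3 replicate 2 was below both controls of batch 1, and ND2 replicate 1 lay between them.
For ND4L, OCIAD2 was at 60.78, 57.63, 57.45 and 56.68 CPM, and for ND5 at 49.84, 61.12, 51.52 and 48.83 CPM. The ND4L libraries were close together, while ND5 replicate 1 lay between the controls of batch 1.
In all, 38 of 42 treated libraries were above both controls of their batch, the 4 exceptions all being in batch 1. The share of all tested genes with as many libraries above was not counted, so nothing is read from this number. The highest mean was that of ATP8, 59.0 ± 6.56 CPM (SD, n = 4), and the mean of the control was 46.6 ± 5.62 CPM (SD, n = 4).

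In the fit of all libraries with a term for the batch, the mean of the 11 treatments exceeded the control by 0.31 on the log2 scale for CD63 (standard error 0.0485) and by 0.26 for OCIAD2 (standard error 0.0556). By treatment, the log2 fold change of CD63 went from 0.18 for ND2 (standard error 0.0689) to 0.39 for ND4L (standard error 0.0637). That of OCIAD2 went from 0.14 for ND3 (standard error 0.0734) to 0.34 for ATP8 (standard error 0.0731). The differences were therefore modest in size, and their sign was the same in all 11 treatments for both genes. A fitted value above control in all 11 treatments, which share their control libraries, was seen for 2385 of the tested genes (11.8%).
CD63 was called higher (edgeR, adjusted p under 0.05) after silencing of ATP8, COX1, COX2, COX3, CYTB, ND1, ND4L and ND5, and OCIAD2 after silencing of ATP8, COX2, COX3, CYTB and ND4L. The share of all tested genes called higher was 0.00493% for ATP6, 0.0444% for ATP8, 0.0345% for COX1, 0.252% for COX2, 0.178% for COX3, 0.38% for CYTB, 0.0493% for ND1, 0.00987% for ND2, 0.00493% for ND3, 0.118% for ND4L and 0.074% for ND5. Over all treatments, 0.104% of the gene and treatment pairs were called higher and 0.0664% lower. For the mean of the 11 treatments, 0.178% of genes were called higher, both CD63 and OCIAD2 among them, and 0.0839% lower. Nothing is read from these calls for the pair, which was chosen by them.
Among the 10430 tested genes with a mean of at least 10 CPM, the central 90% of log2 fold changes for the mean of the treatments lay between -0.11 and 0.14, and CD63 ranked 19 and OCIAD2 45 from the highest. Over all 20272 tested genes, the central 90% lay between -0.35 and 0.33, and both CD63 and OCIAD2 were within it.

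**Figure D2:**
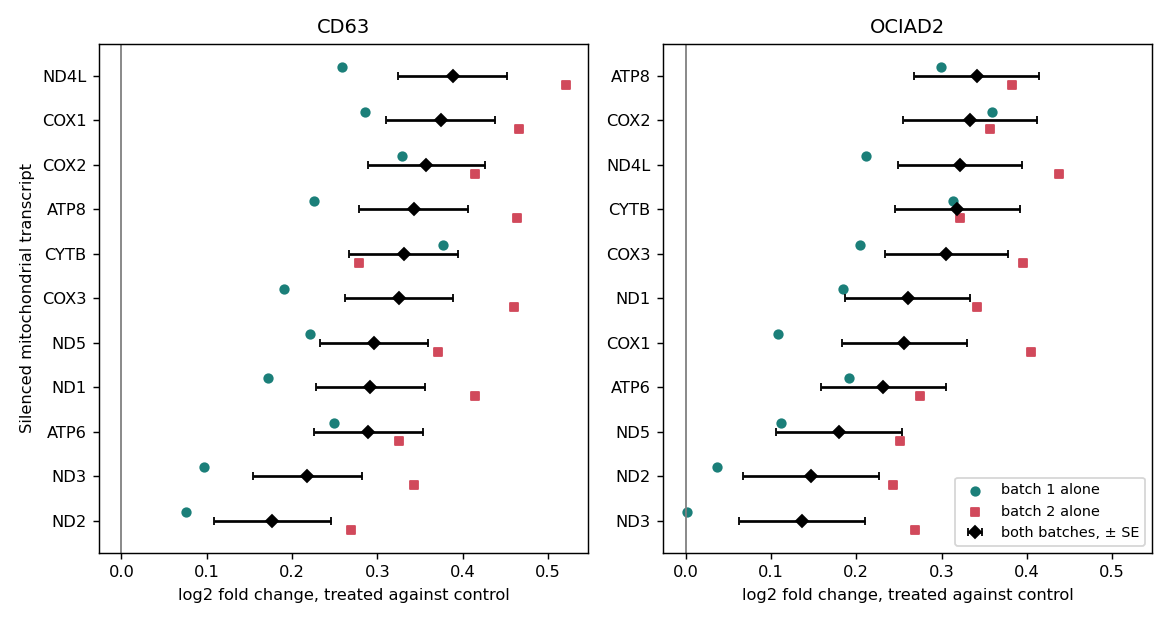
Log2 fold change of CD63 (left) and OCIAD2 (right) after each of 11 treatments against control, ordered by size; diamonds with bars are the fitted value of both batches ± SE, circles the difference within batch 1 and squares within batch 2. The values of batch 2 are mostly to the right of those of batch 1, for CD63 with CYTB as the exception.

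The size of the difference depended on the batch, and it rested on 2 control libraries in each. Within batch 1 the log2 difference from the control mean was 0.08 to 0.38 for CD63 (median 0.23), and within batch 2 it was 0.27 to 0.52 (median 0.41). For OCIAD2 it was 0.00145 to 0.36 in batch 1 (median 0.19) and 0.24 to 0.44 in batch 2 (median 0.34). All 11 treatments were above control in each batch for both genes. From batch 1 to batch 2, the control libraries fell by 0.275 on the log2 scale for CD63 and fell by 0.277 for OCIAD2, while the mean of the treated libraries fell by 0.11 and fell by 0.125. Whether the batches differ in the treatment effect was not tested.
The calls rested on the controls of batch 2 in particular. Without control replicate 4, CD63 was called higher after 2 treatments (COX1 and ND4L) and OCIAD2 after none, although the mean log2 fold changes were still 0.27 and 0.22. Without control replicate 3, CD63 was called after 6 treatments and OCIAD2 after none, and without control replicate 1, OCIAD2 was called after 1. In batch 1 alone neither gene was called after any treatment, and in batch 2 alone CD63 was called after 7 and OCIAD2 after 1. Without a term for the batch, neither was called after any treatment, at mean log2 fold changes of 0.30 and 0.25. The sign stayed the same under these choices. Both genes were above control in all 11 treatments with each of the 46 libraries left out in turn, and in each batch alone. The pair was chosen for standing above control in these libraries, and all treatments share the controls. The sign is therefore a description and no independent support.

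**Figure D3:**
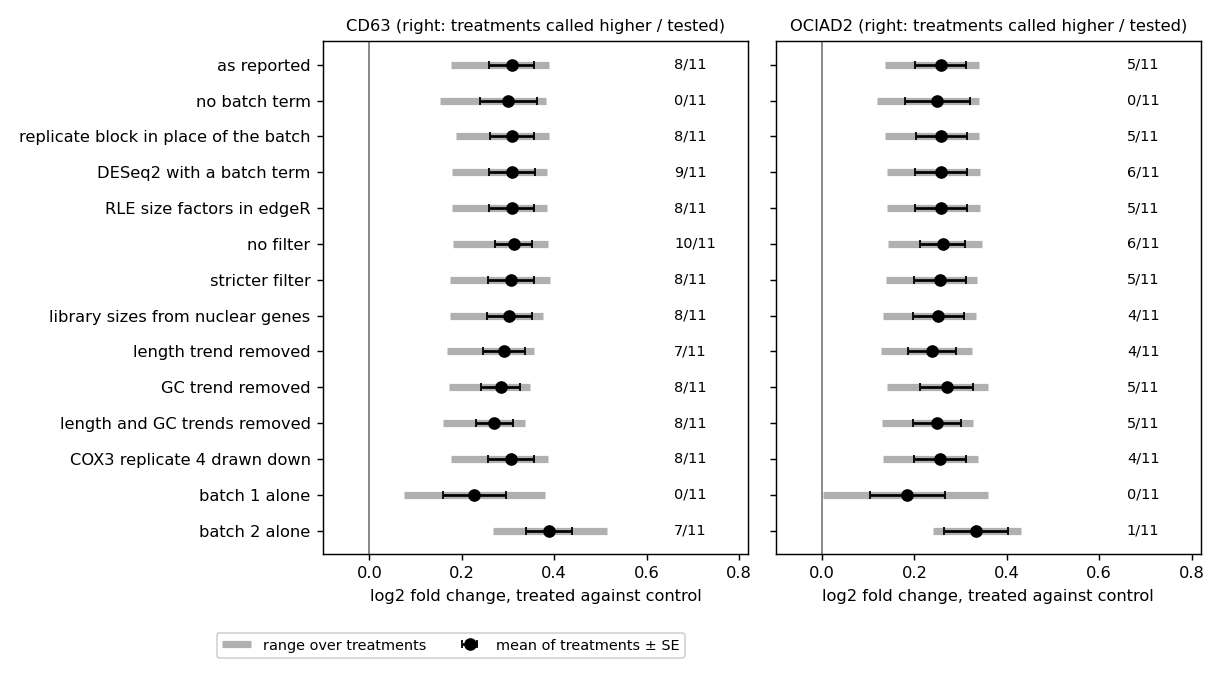
Log2 fold change against control for CD63 (left) and OCIAD2 (right) as reported and under 13 other ways of processing; dots with bars are the mean of the 11 treatments ± SE, grey bars the range over treatments, and the numbers on the right the treatments called higher of those tested. All grey bars lie above 0, while the count of calls goes from 0 to 10 for CD63 and from 0 to 6 for OCIAD2.

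The treatments were also set against each other. The treated libraries also entered the choice of the pair, and the control libraries share the fit, so these values are a description and not an independent test. In the test for any difference among the 11 treatments neither gene was called by edgeR, where 0.306% of all genes were called, nor by DESeq2, where 1.76% were. Neither was called in any treatment set against the mean of the other 10 treatments, a comparison in which 0.0991% of gene and treatment pairs were called in either direction by edgeR and 0.233% by DESeq2. At an unadjusted p under 0.05 stood 2 treatments for CD63 and 1 for OCIAD2, and 6.98% of all gene and treatment pairs.
Those treatments were at the low end. CD63 after ND2 silencing stood at a log2 difference of -0.14 from the other 10 treatments (standard error 0.0547) and after ND3 silencing at one of -0.10 (standard error 0.0475). OCIAD2 after ND3 silencing stood at -0.13 (standard error 0.0544). At the high end, ND4L was above the others by 0.09 for CD63 (standard error 0.0467) and ATP8 by 0.09 for OCIAD2 (standard error 0.0533). These values do not show that the treatments act alike.
Ordered by the level in treated libraries centred on their batch, CD63 went from ND4L, COX1, COX2, ATP8 and CYTB over COX3, ND5, ND1 and ATP6 to ND3 and ND2. OCIAD2 went from ATP8, COX2, ND4L, CYTB and COX3 over ND1, COX1, ATP6 and ND5 to ND2 and ND3. ND2 and ND3 were last in both, and each treatment overlapped with its neighbour in the order.

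CD63 and OCIAD2 varied together from library to library. Over the 42 treated libraries, with values centred on the batch, Pearson's r was 0.741 and Spearman's rho 0.783. It was 0.754 in batch 1 (n = 20) and 0.721 in batch 2 (n = 22), and 0.746 without the 2 libraries farthest from the median of CD63. These are descriptions, since libraries share batches, treatments and the composition of their RNA.
Properties of whole libraries moved with both genes. In each library, levels of genes with a mean of at least 10 CPM followed gene length with a slope of -0.065 to 0.0636 log2 units per doubling of length, a negative slope meaning that short genes were higher. Over the treated libraries this slope had an r of -0.547 with CD63 (rho -0.578) and of -0.736 with OCIAD2 (rho -0.725). Within batches it was -0.582 and -0.49 for CD63 and -0.786 and -0.639 for OCIAD2. Leaving out the 2 libraries of most extreme slope gave -0.518 and -0.692. A slope on GC content (log2 units per 10% of GC) had an r of 0.521 with CD63 (rho 0.467) over the treated libraries. With OCIAD2 its r was 0.365 (rho 0.381).
For gene length, the control libraries of batch 2 were at slopes of 0.0377 and 0.0586, toward the upper end of the treated libraries of their batch (-0.0384 to 0.0636, median 0.0106). Those of batch 1 were at -0.00439 and 0.00127, among the treated libraries of theirs (-0.065 to 0.035, median -0.00949). For GC content, the controls of batch 2 were at -0.0563 and -0.018 (treated libraries -0.0594 to 0.123, median 0.0217). Those of batch 1 were at -0.0518 and 0.00408 (treated libraries -0.105 to 0.0908, median -0.021). After removal of the trend on gene length from each library, the mean log2 fold change was 0.29 for CD63 and 0.24 for OCIAD2, and after removal of the trends on length and GC content it was 0.27 and 0.25.

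**Figure D4:**
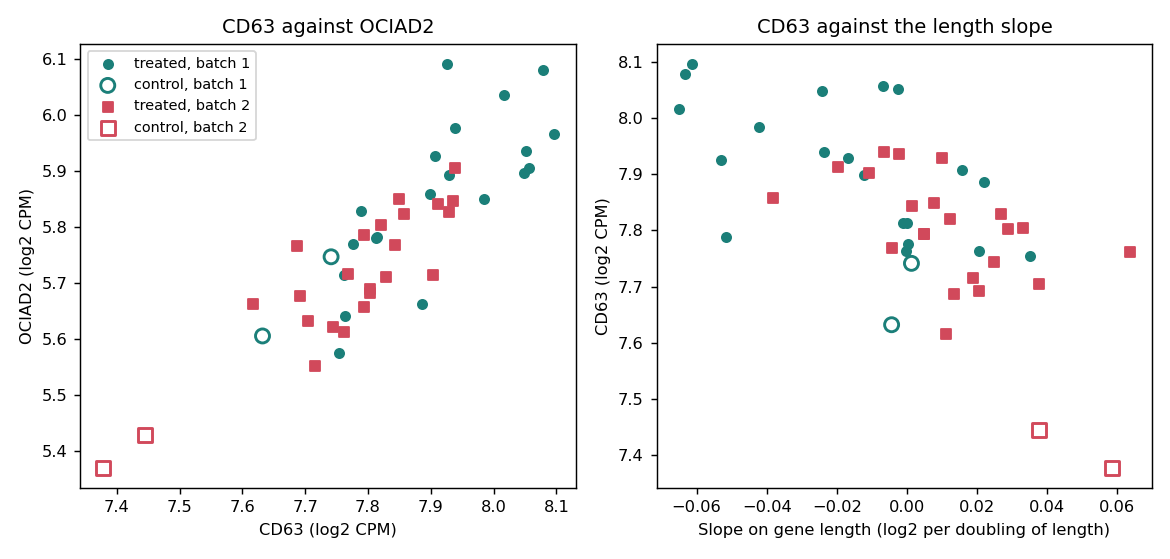
Left, OCIAD2 against CD63 (both in log2 CPM) in 46 libraries; right, CD63 (log2 CPM) against the slope of gene levels on gene length in the same libraries. Filled symbols are treated and open symbols control libraries, circles batch 1 and squares batch 2; the 2 control libraries of batch 2 lie apart at the lowest levels of both genes and at slopes of 0.0377 and 0.0586.

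The relatives and partners of both proteins were examined in 5 lists of 173 other genes, of which 166 were tested. None of the 166 was called in the mean of the 11 treatments against control (edgeR), where 19 had an unadjusted p under 0.05 upward (11.4%, against 6.55% of all tested genes) and 6 downward (3.61%, against 5.37%). DESeq2 called 3 of them higher, CD151, FLOT1 and GUSB (1.81%, against 0.74% of all tested genes). Without a filter, edgeR called 4 of 173 listed genes higher, CD151, FLOT1, PHB and UQCRH, against 234 of 47354 over all genes. Of the 1826 pairs of a listed gene and a treatment, 3 were called by edgeR, 2 higher (0.11%) and 1 lower (0.0548%), near the shares of 0.104% and 0.0664% over all genes. They were CD151 higher after CYTB silencing (log2 fold change 0.26, adjusted p = 0.0377), GUSB higher after COX2 silencing (0.23, adjusted p = 0.0463) and VPS37A, a subunit of the ESCRT-I sorting complex, lower after COX2 silencing (-0.28, adjusted p = 0.0433).
Of the 26 other tetraspanins tested, 12 were above control, with a median log2 fold change of -0.02, against -0.0013 and 49.4% above control for all tested genes. CD151, a tetraspanin that binds laminin-receptor integrins, was at 98.7 ± 8.67 CPM in the control (SD, n = 4) and 112.3 ± 9.74 CPM in the treated libraries (SD, n = 42). Its log2 fold change was 0.19 with a standard error of 0.0476 (edgeR, adjusted p = 0.0592). It was called with the replicate number as a block (edgeR, adjusted p = 0.0427), without a filter (edgeR, adjusted p = 0.00339) and by DESeq2 (adjusted p = 0.0162). With the GC trend removed its adjusted p was 0.0222, and with length and GC trends removed 0.0142 (edgeR). CD9 and CD81, the other tetraspanins in common use as exosome markers, had log2 fold changes of 0.06 (standard error 0.0406) and 0.02 (standard error 0.0439). CD82, at a mean of 1.48 CPM, had a value of 0.28 with a standard error of 0.226, and TSPAN17 (0.12), TSPAN7 (-0.13) and TSPAN12 (-0.10) were not called. Per kilobase, TSPAN3 followed CD63 at 55.9 CPM, with a log2 fold change of -0.04 (standard error 0.0288).
The list of multivesicular body and exosome genes had 24 of 46 above control (median log2 fold change 0.014). The exosome scaffold syntenin (SDCBP) was at -0.08 (standard error 0.0398) and its partner ALIX (PDCD6IP) at -0.03 (standard error 0.0312), neither called. TIMP1, the inhibitor that binds CD63, was at 0.06 (standard error 0.0587) and the integrin ITGB1 at 0.01 (standard error 0.0367). The flotillins FLOT1 (0.15) and FLOT2 (0.10), the ESCRT-III subunit CHMP4B (0.13) and RAB35 (0.10) had the smallest p of this list. They were not called by edgeR in the fit as reported.
Of lysosomal membrane proteins and hydrolases, listed together with the regulators TFEB, TFE3 and MITF, 36 of 57 were above control (median 0.017). LAMP1 and LAMP2, the most abundant proteins of the lysosomal membrane, were at 0.01 (standard error 0.0455) and 0.03 (standard error 0.0386) and were not called. The hydrolases GUSB (0.13), CTSL (0.12), CTSB (0.11) and ARSB (-0.13) had the smallest p and were not called by edgeR.
For OCIAD2, the list of its paralogue OCIAD1, prohibitins and complex III had 18 of 23 genes above control (median 0.061). This list also held AFG3L2, YME1L1, PARL and CYCS. Of the 23, 6 had an unadjusted p under 0.05 upward and 0 downward (edgeR), against 6.55% and 5.37% of all tested genes. The list as a set was not tested. OCIAD1 was at 116.3 ± 3.52 CPM in the control (SD, n = 4) and 116.7 ± 7.42 CPM in the treated libraries (SD, n = 42), which differ by 0.0043 on the log2 scale (standard error 0.0433). The prohibitins PHB and PHB2 were at 0.14 (standard error 0.046) and 0.06 (standard error 0.0344). The complex III genes CYC1 (0.14), UQCRH (0.14) and BCS1L, an assembly factor (0.10), were not called in the fit as reported.
Of γ-secretase subunits and substrates, listed together with the proteases ADAM10, BACE1 and BACE2, 6 of 14 were above control (median -0.016). PSEN2 was at 0.10 (standard error 0.0454), the substrates APP and NOTCH1 at 0.09 (standard error 0.0309) and -0.12 (standard error 0.0561), and the protease BACE1 at -0.09 (standard error 0.0471), and none of these was called.

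**Figure D5:**
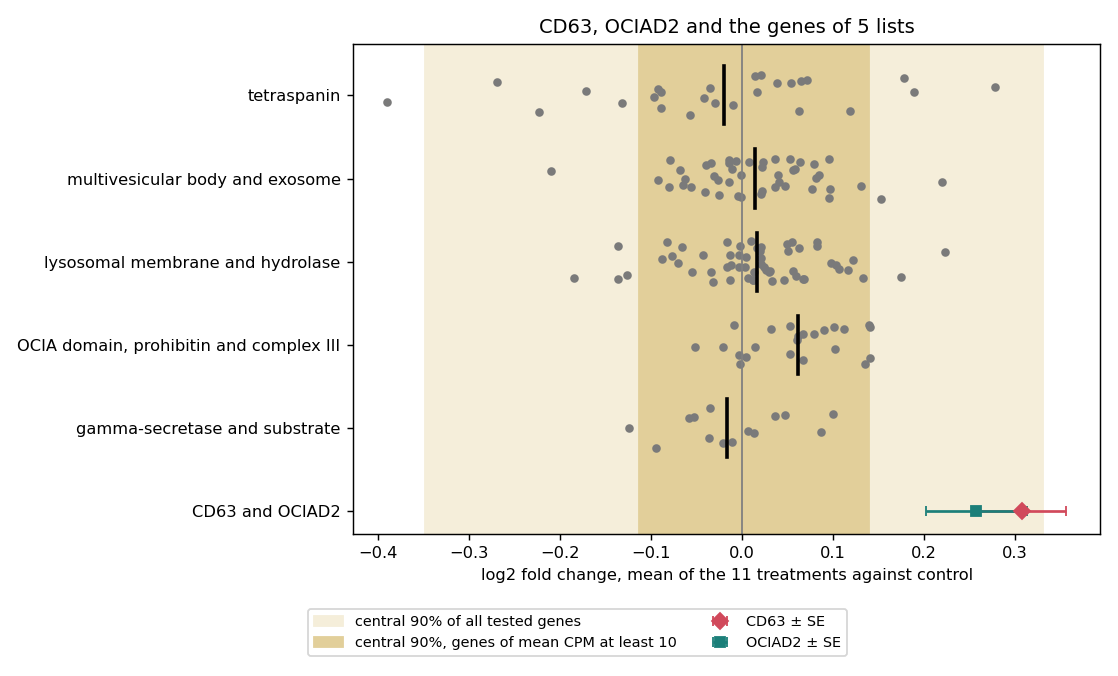
Log2 fold change of the mean of the 11 treatments against control for the tested genes of 5 lists (grey points, with a black bar at the median) and for CD63 and OCIAD2 (coloured, ± SE); the shaded bands hold the central 90% of all tested genes and of those with a mean of at least 10 CPM. CD63 at 0.31 and OCIAD2 at 0.26 lie beyond the narrower band, which ends at 0.14. Both lie inside the wider band of all tested genes, which ends at 0.33. The list medians lie between -0.02 and 0.061.

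The genes next to CD63 and OCIAD2 on the chromosome were not called. Of the 5 nearest tested genes on each side of CD63, 8 of 10 had a log2 fold change above 0, from -0.20 to 0.35 (median 0.07), and none was called higher after any treatment. AC009779.2, an antisense gene that overlaps the 5′ end of CD63 and held 67 to 446 reads per library, was at 0.06 (standard error 0.108). Whether reads were counted by strand is not given in the sources used here, so reads of this stretch could be shared between both genes. Of the 10 nearest tested genes of OCIAD2, 2 were above 0, from -0.71 to 0.03 (median -0.07). OCIAD1 lies 23202 bases from OCIAD2, and the nearest tested gene on the other side, DCUN1D4, is 2936063 bases away.

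Among 10429 other genes with a mean of at least 10 CPM, those whose level followed CD63 most closely over the 42 treated libraries, centred on the batch, were NDUFS6 (a complex I subunit, r = 0.868), CYBA (a subunit of NADPH oxidase, r = 0.849), EDF1 (a transcriptional coactivator, r = 0.846), EIF5A (a translation factor, r = 0.842) and HSD17B10 (a mitochondrial dehydrogenase and subunit of RNase P, r = 0.836). For OCIAD2, they were PSMB5 (a proteasome subunit, r = 0.837), TIMM8B (a mitochondrial import chaperone, r = 0.828), POLR2J (a subunit of RNA polymerase II, r = 0.825), SSR4 (r = 0.822) and RPL30 (a ribosomal protein, r = 0.821). For the genes like CD63, log2 fold changes of the mean of the treatments were 0.34 (NDUFS6), 0.21 (CYBA), 0.24 (EDF1), 0.20 (EIF5A) and 0.13 (HSD17B10). For those like OCIAD2, they were 0.16 (PSMB5), 0.18 (TIMM8B), 0.15 (POLR2J), 0.07 (SSR4) and 0.25 (RPL30). EDF1 was called (edgeR, adjusted p = 0.0389) and the others were not. A level above control was thus not particular to the pair. OCIAD2 was number 48 in likeness to CD63, and CD63 number 56 in likeness to OCIAD2. The genes with likeness to each overlapped, with 43 of the 100 most alike in common.
These genes were short. The 100 genes most like CD63 had a median length of 2250.5 bases and the 100 most like OCIAD2 one of 1914.5 bases, against 5446 bases for all genes compared, and the 100 least alike had medians of 7640 and 9883 bases. Their median GC content was 56.6% and 53.7%, against 47.3% for all. CD63 and OCIAD2, at 2633 and 2483 bases, are themselves short, and their GC content is 54.7% and 43.8%. The likeness is thus given as a description of libraries that also differed in the slope on gene length, and the part of that slope in it was not tested.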

How the data were processed

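RNA-seq was performed on HEK293T cells in 46 libraries of 12 conditions. Poly(A)-enriched RNA was sequenced, and the authors deposited the raw count of reads for each gene, neither normalized nor filtered; the table also holds a deposited gene length in bases. Per the labels the genome build is GRCh38.p12, and R 4.3.0, DESeq2 1.40.2 and limma 3.56.2 were used downstream; aligner, counter and strand setting are not given in the sources used here, and the labels describe single-end but the methods paired-end reads. Groups come from the sample labels and batches from the study's methods.

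For testing, edgeR 4.0.16 (R 4.3.3) fitted a quasi-likelihood model after TMM normalization, in which condition and batch were terms. It covered the 20272 genes that passed filterByExpr at a minimum count of 10, with Benjamini-Hochberg adjustment over all of them and a threshold of 0.05. CPM is the count divided by the TMM-adjusted library size and scaled to a common total, log2 CPM has a prior count of 2, and intervals are standard errors. CD63, OCIAD2, the 5 lists and the rules below were chosen with earlier results of these data known. Named genes were 15 fixed ones and up to 4 of smallest p in each list, 5 neighbours a side and the 5 most alike genes. Of the fixed genes, 1 is not reported here. The script was tested on simulated data. Replicate numbers were shared between groups. Deviations from the group means had an average r of 0.514 (lowest 0.168) for libraries with the same number. For those with the other number of the same batch it was 0.445. After removal of the batch, these values were 0.0446 and -0.104. The numbers thus paired libraries mostly by batch, which the fit holds, and the replicate number was used as a block in an alternative fit. The 66 replicate pairs differed by more than sampling noise (their chi-square per degree of freedom was 3.28 to 20.8). Alternatives were no batch term, the replicate number as a block, DESeq2 1.42.0, RLE size factors, other filters, nuclear library sizes, trends on gene length removed, each batch alone, COX3 replicate 4 drawn down and each library left out; removal of GC trends was chosen after seeing the data. The protein sequences were not used here.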

Additional observations from a re-analysis of the deposited data

Results flagged for a closer look

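In a group of 4, ND5 replicate 2 stood apart for CD63, its gap to the nearest library being 0.854 of the range of the ND5 libraries in log2 CPM. It was at 265.2 CPM, and the other ND5 libraries were at 216.9 to 223.4 CPM. Of the 20 groups of 4 libraries examined for either gene, no other had a library set apart. Chance would set about 1 in 20 apart if the libraries of a group were alike. These groups span both batches, and the values were not centred on the batch, so that rate need not hold. From batch 1 to batch 2, the mean of the treated libraries fell by 0.11 for CD63 on the log2 scale. Whether ND5 replicate 2 stands apart once the batch is removed was not tested.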

How the results depend on the processing

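CD63 and OCIAD2, which were chosen for standing above control in these libraries, kept a mean log2 fold change above 0 under all alternatives run. The call of this mean was not kept. Without the batch term (edgeR, adjusted p = 0.136 for CD63 and 0.288 for OCIAD2) and without control replicate 4 (0.0742 and 0.377) it was lost for both genes. For OCIAD2 it was also lost without control replicate 1 (0.0648) or 3 (0.155). CD63 was called in 0 treatments without the batch term (mean 0.301) and in 0 in batch 1 alone (0.227), against 8 as reported; OCIAD2 was called in 0 (0.25), 0 (0.185) and, in batch 2 alone, 1, against 5. With each library left out in turn, CD63 was called in 2 to 8 treatments (mean 0.271 to 0.35) and OCIAD2 in 0 to 5 (0.224 to 0.304); the fewest calls came without control replicate 4 for CD63 and without control replicate 3 or 4 for OCIAD2, and without control replicate 1 OCIAD2 was called in 1. Omission of COX3 replicate 1 left 2 treatments for OCIAD2, and that of ATP8 replicate 1 or 4, COX1 replicate 2 or 3, COX2 replicate 3, ND1 replicate 1, ND2 replicate 3, ND3 replicate 3 or ND5 replicate 4 left 3. Neither gene was called among treatments or against the other 10 under any alternative.
Counts over all genes moved more. Gene and treatment pairs called numbered 381 as reported, 34 without the batch term, 892 with the replicate block, 1482 with DESeq2, 2169 without a filter, 774 without the GC trend, 782 without both trends, 59 in batch 1, 228 in batch 2 and 75 to 608 with libraries left out. For the mean of the treatments the count was 53, and 1, 152, 221, 320, 135, 131 and, in batch 1, 2, with 2 to 98 with libraries left out. Among treatments it was 62, and 27, 200, 357, 784, 120, 119 and, in batch 2, 22, with 52 to 104. Against the other 10 it was 221, and 60, 394, 520, 988 and, in batches 1 and 2, 101 and 57, with 115 to 273. The replicate block changed no call of either gene. The cause of these shifts was not tested. With COX3 replicate 4 drawn down in depth, OCIAD2 was called in 4 treatments, COX3 (adjusted p = 0.0546, edgeR) being lost, and CD63 in 8. Both genes had at least 869 reads in each library.
Over all 46 libraries, 1 of the 5 genes most like OCIAD2 remained among its 10 most alike, and 5 of 5 for CD63.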
